A study of Mus musculus with 3 samples.

Results

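Potassium channel genes encode the pore-forming subunits of potassium-selective channels and the proteins that bind to them. The genes taken here were those listed under a single gene name of the form Kcn, further letters and a final number, without Kcnq1 and Kcnk9. By this rule 84 genes were found among 26366 gene names in the RNA-seq of mouse embryonic stem (ES) cells, and 82 of them were listed in all 3 samples, among 25350 genes so listed. Kcnh6 was joined with its neighbour Dcaf7 into one locus in Pcgf1-/-+Pcgf1, and Kcnj14 was joined with Grwd1 in WT, so both genes had no value of their own there. All 84 genes were found in the GENCODE vM21 annotation of mm10.

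One sample of each of 3 ES cell lines was sequenced. WT was the unmodified line. Pcgf1-/- carried a Cas9 deletion made with guides against exon 2 and exon 3 of Pcgf1, a subunit of the variant Polycomb repressive complex PRC1.1 that ubiquitylates histone H2A, and came from puromycin-selected colonies. Pcgf1-/-+Pcgf1 was the deleted line after lentiviral delivery of a FLAG-tagged Pcgf1. All 3 were labelled C57BL/6 and were grown with serum and leukemia inhibitory factor on mitomycin-C-treated mouse embryonic fibroblasts, which carry wild-type Pcgf1 and whose RNA can be in each sample. How many clones stood behind each line was not stated. With 1 sample per group no difference has a replicate check, no test was made, and differences between lines cannot be told apart from differences between cultures or clones. The comparisons asked whether the level of these genes differed without Pcgf1 and whether it differed again after Pcgf1 was put back.

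Potassium channels let potassium leave or enter the cell along its gradient and thereby set the resting membrane potential. Kv subunits open on depolarisation, inward rectifiers pass current near the resting potential, two-pore-domain subunits give leak currents, and a further group opens on intracellular calcium or sodium. Silent subunits form no channel alone and modify Kv channels, and auxiliary subunits change gating or trafficking. In neurons, heart and muscle these genes shape excitability. ES cells are not excitable tissue, although potassium channels have been recorded from them.

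The level of a gene was the larger of its summed FPKM over first-exon rows and over last-exon rows of the deposited event lists. FPKM is the number of fragments scaled to transcript length and to the mapped fragments of the library, so levels can be compared between genes. A value above 0 was listed for 59 of 82 potassium channel genes in WT (72%), for 56 in Pcgf1-/- (68.3%) and for 62 in Pcgf1-/-+Pcgf1 (75.6%). Over all genes the shares were 50.9%, 49.2% and 52.3%. Most of the channel genes that were listed above 0 had low levels. The median of the values above 0 was 0.188 FPKM in WT, 0.245 FPKM in Pcgf1-/- and 0.186 FPKM in Pcgf1-/-+Pcgf1, against 5.04, 5.13 and 4.33 FPKM over all genes. At least 1 FPKM was reached by 15 members in WT (18.3%), by 12 in Pcgf1-/- (14.6%) and by 14 in Pcgf1-/-+Pcgf1 (17.1%), against 36.3%, 35.3% and 36.9% of all genes. In each of the 3 samples the family's share above 0 was the larger and its share at 1 FPKM the smaller, which is a description without a test.

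Of the 82 genes, 48 were above 0 in all samples (58.5%), 15 in none (18.3%) and 19 in 1 or 2 samples (23.2%). Over all genes these shares were 46.3%, 44.5% and 9.14%. The 15 genes listed at 0 throughout were Kcna1, Kcna10, Kcne1, Kcne2, Kcne4, Kcng3, Kcnip4, Kcnj4, Kcnj5, Kcnj6, Kcnj13, Kcnj15, Kcnk12, Kcnmb2 and Kcnmb3. Among them are the neuronal Kv subunit Kcna1, the subunits Kcnj5 and Kcnj6 of G protein-gated inward rectifiers, and Kcne1 and Kcne2, which accompany cardiac Kv channels. A pattern with a value in WT and Pcgf1-/-+Pcgf1 and 0 in Pcgf1-/- was listed for 7 genes, which were Kcnd3, Kcnh7, Kcnj2, Kcnk15, Kcnmb1, Kcnmb4 and Kcns2. The reverse gap, 0 in WT and a value in both other samples, was listed for 5 genes, which were Kcna2, Kcnb2, Kcnc2, Kcnd2 and Kcne3. The values of these 12 genes were low, and none reached 0.2 FPKM. The shares of all genes with the same patterns were not computed, so the counts of 7 and 5 have no background beside them. The lists hold no counts and give no library depth, so a value of 0 is not a sign that a gene was silent.

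**Figure D1:**
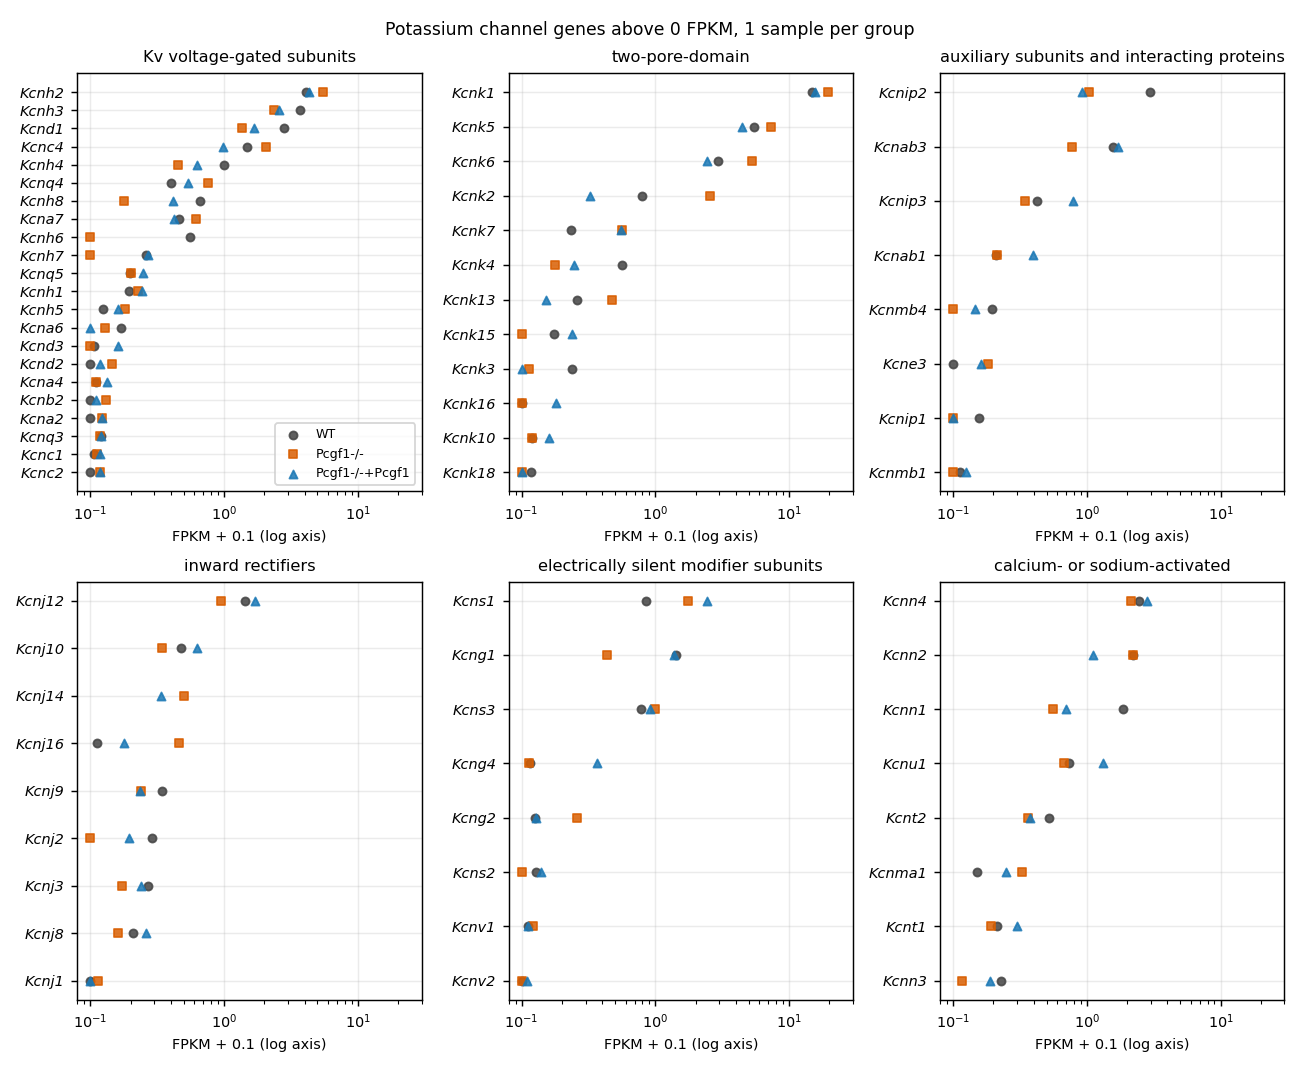
FPKM + 0.1 on a log axis for the potassium channel genes above 0 in a sample, by role, without genes that are not reported here, with 1 point per sample (circles WT, squares Pcgf1-/-, triangles Pcgf1-/-+Pcgf1); a point at 0.1 is a value of 0, and Kcnh6 and Kcnj14 each lack the sample in which they were joined to a neighbour. Kcnk1 lies highest, from 14.65 to 19.46 FPKM, and most other members lie below 1 FPKM in every sample.

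The family's summed level was 60 FPKM in WT, 63.69 FPKM in Pcgf1-/- and 55.55 FPKM in Pcgf1-/-+Pcgf1. Kcnk1 alone held 24.4%, 30.5% and 28.1% of these sums. The 5 highest genes held 50.9%, 62.3% and 52.8%. Kcnk1, Kcnk5 and Kcnh2 were the 3 highest in each sample, in that order. For Kcnk1 in Pcgf1-/- the order and the share rest on first-exon rows, since its last-exon row there carried 4.497 FPKM, below the levels of Kcnk5, Kcnh2 and Kcnk6. By role, the two-pore-domain subunits had the largest sum in every sample, followed by the Kv subunits.

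Changes were taken as ratios of FPKM + 0.1, and a gene was counted as higher or lower when the ratio passed 2-fold. The added 0.1 FPKM understates the change of low genes. Between Pcgf1-/- and WT, 6 of 82 potassium channel genes were higher (7.32%), which were Kcng2, Kcnj16, Kcnk2, Kcnk7, Kcnma1 and Kcns1. Of all 25350 genes, 2.16% were higher. Lower in Pcgf1-/- were 11 members (13.4%), which were Kcnab3, Kcnd1, Kcng1, Kcnh4, Kcnh7, Kcnh8, Kcnip2, Kcnj2, Kcnk3, Kcnk4 and Kcnn1, against 4.98% of all genes. In either direction the share was 20.7% of the members and 7.14% of all genes. The median log2 ratio was 0.00 for the members and for all genes.

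These shares depend on the level, because 44.5% of all genes were at 0 in every sample and could not pass 2-fold. In a split by the larger value of the pair, chosen after the data had been seen, 20 members had a larger value from 0.1 up to 0.5 FPKM. Of these, 4 were higher in Pcgf1-/- (20%) and 4 were lower (20%), against 11.6% and 27.4% of 1690 genes in that range. From 0.5 up to 5 FPKM, 2 of 20 members were higher (10%) and 7 were lower (35%), against 6.06% and 17% of 3564 genes. No member among the 4 at 5 FPKM or more passed 2-fold, against 2.01% of genes higher and 2.89% lower. Over the 24 members of at least 0.5 FPKM in one of both samples, 8.33% were higher and 29.2% were lower, against 3.41% and 7.78% of genes. Below 0.5 FPKM the members' share lower was thus under that of genes of the same level and their share higher was above it, and from 0.5 to 5 FPKM both shares were above those of genes, with 9 members behind them.

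**Figure D2:**
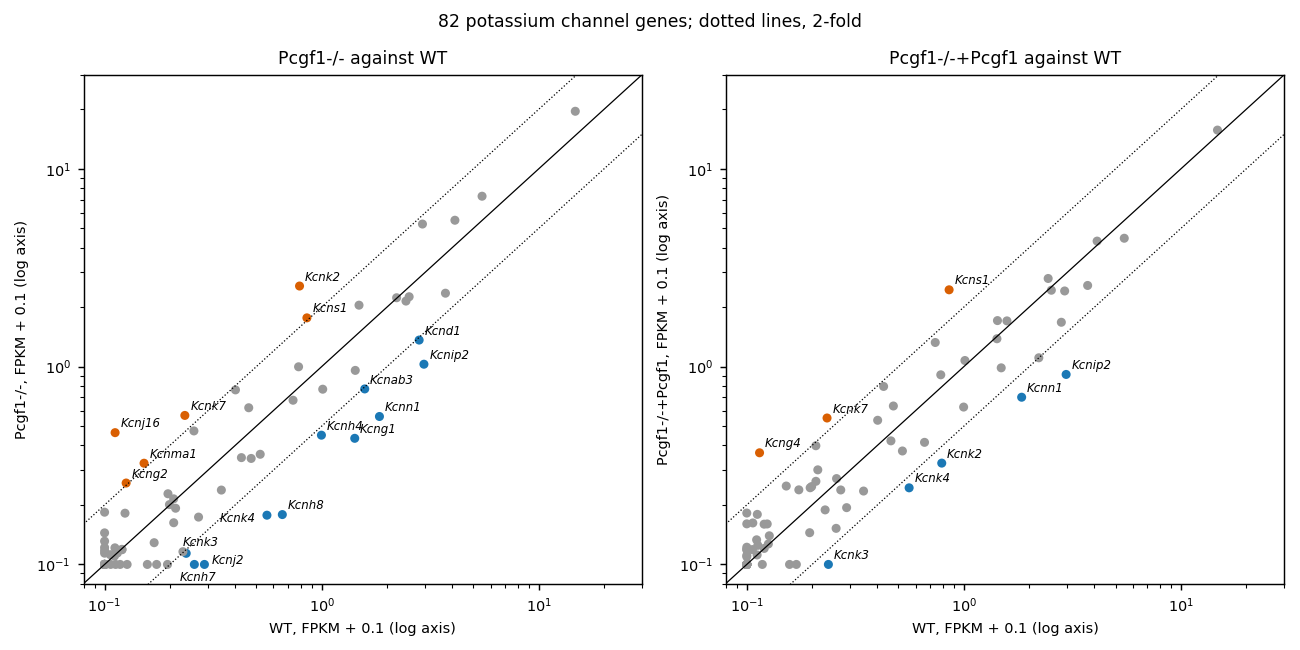
FPKM + 0.1 of the 82 potassium channel genes in Pcgf1-/- (left) and Pcgf1-/-+Pcgf1 (right) against WT, log axes, 1 point per gene; the solid line marks equal values, dotted lines mark 2-fold, and genes beyond 2-fold are coloured and named. On the left 6 genes lie above and 11 below the dotted lines, and on the right 3 lie above and 5 below.

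The two-pore-domain group held 13 genes, with summed levels of 24.54 FPKM in WT, 35.2 FPKM in Pcgf1-/- and 23.43 FPKM in Pcgf1-/-+Pcgf1. Kcnk1 (TWIK-1), a weakly conducting leak subunit, was listed at 14.65 FPKM in WT, 19.46 FPKM in Pcgf1-/- and 15.61 FPKM in Pcgf1-/-+Pcgf1. Its log2 ratio between Pcgf1-/- and WT was 0.41, within 2-fold. The Pcgf1-/- value rests on the first-exon row, since the last-exon row of the same sample held 4.50 FPKM and a shorter last exon. On last-exon rows alone the group's summed level was lower in Pcgf1-/- than in WT (log2 ratio -0.29), so the direction of this sum depends on which rows are read. Kcnk5 (TASK-2), an alkaline-activated leak channel, had 5.386 FPKM in WT, 7.175 FPKM in Pcgf1-/- and 4.36 FPKM in Pcgf1-/-+Pcgf1. Kcnk6 (TWIK-2) followed with 2.815, 5.162 and 2.314 FPKM in the same order. By these levels all 3 genes were highest in Pcgf1-/-. Of their steps only that of Kcnk6 from Pcgf1-/- to Pcgf1-/-+Pcgf1 passed 2-fold (log2 ratio -1.12). For Kcnk1 this holds on first-exon rows only. On last-exon rows Kcnk1 had 14.65 FPKM in WT, 4.497 FPKM in Pcgf1-/- and 15.61 FPKM in Pcgf1-/-+Pcgf1. There Pcgf1-/- was the lowest, more than 2-fold below each of the other samples.

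The Kcnk1 first-exon row began at position 125995102 of chromosome 8, which is the start of its RefSeq promoter entry and lies 68 bases before the nearest GENCODE start. The promoter is shown because Kcnk1 was the most abundant member. This and the later promoter sequences come from RefSeq (GRCm38.p6) and cover 250 bases before and 50 bases after a start, 5′ to 3′, with each CG dinucleotide in capitals. It holds 10 CG, and 43.5% of the 32851 promoters in the table hold as many or more. A CG reads the same on both strands, and 94.6% of the promoters hold at least 1. A comparison of CG counts over the whole family was void, because an entry was found for only 62 of 82 members (75.6%).

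Kcnk1, chr8:125994852-125995151, plus strand: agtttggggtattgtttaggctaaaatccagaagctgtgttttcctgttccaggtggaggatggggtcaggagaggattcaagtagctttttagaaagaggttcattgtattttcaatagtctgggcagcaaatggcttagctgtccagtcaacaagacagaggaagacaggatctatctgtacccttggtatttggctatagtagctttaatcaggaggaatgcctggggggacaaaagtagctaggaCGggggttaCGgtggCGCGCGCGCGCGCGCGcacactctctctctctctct

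Kcnk2 (TREK-1), a leak channel opened by stretch and lipids, was the member with the largest step in the two-pore-domain group. It was listed at 0.691 FPKM in WT, 2.457 FPKM in Pcgf1-/- and 0.225 FPKM in Pcgf1-/-+Pcgf1. Pcgf1-/- was thus the highest of the 3 samples, and Pcgf1-/-+Pcgf1 lay below WT. The log2 ratio was 1.69 for Pcgf1-/- against WT, -2.98 for Pcgf1-/-+Pcgf1 against Pcgf1-/-, and -1.28 for Pcgf1-/-+Pcgf1 against WT. The first difference stayed beyond 2-fold with a pseudocount of 1 FPKM (1.03).

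The Kcnk2 difference was not spread over its starts. The gene has 8 listed first exons over chr1:189207930-189402273, on the minus strand. In WT, 0.602 FPKM came from a first exon at 189243237 to 189243434 and 0.0889 FPKM from the farthest upstream first exon, at 189402113 to 189402273. In Pcgf1-/-, all 2.457 FPKM came from the first of these, whose 5′ end lay 16 bases downstream there, and the upstream exon was listed at 0. In Pcgf1-/-+Pcgf1 all 0.225 FPKM came from the upstream exon. The downstream exon lies inside the gene at the annotated start of Kcnk2-204, a processed transcript for which GENCODE gives no coding sequence. Coding first exons between them, at 189343043 to 189344192, were listed at 0 in all samples. The gene's higher level in Pcgf1-/- was therefore that of a start annotated as noncoding, and which coding exons its transcript held was not determined. This start also carried most of the WT level. The upstream exon is the annotated start of Kcnk2-203, which GENCODE classes as nonsense-mediated decay and not as protein-coding. No start of a transcript classed as protein-coding was above 0 in any sample. A430027H14Rik, an antisense gene that overlaps Kcnk2 exons, was listed at 0 in all samples.

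Promoters of the Kcnk2 upstream exon, which carried FPKM in WT and Pcgf1-/-+Pcgf1, and of a coding first exon listed at 0 in all samples are shown to set both starts side by side. The upstream promoter holds 6 CG, a count that 56.4% of promoters reach, and the coding one holds 33 CG, which 8.56% reach. The coding promoter was picked as the one with most CG among Kcnk2 promoters at a listed first exon. The promoter of another coding first exon, also listed at 0 in all samples, holds 3 CG (chr1:189344143-189344442). The difference in CG between the printed promoters thus depends on this choice.
Kcnk2 upstream, chr1:189402224-189402523, minus strand: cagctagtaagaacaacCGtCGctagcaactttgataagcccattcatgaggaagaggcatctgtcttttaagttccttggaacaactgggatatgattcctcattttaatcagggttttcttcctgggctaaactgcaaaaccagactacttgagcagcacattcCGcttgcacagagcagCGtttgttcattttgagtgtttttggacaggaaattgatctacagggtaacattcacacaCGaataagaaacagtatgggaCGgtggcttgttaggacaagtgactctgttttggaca
Kcnk2 coding, chr1:189343658-189343957, minus strand: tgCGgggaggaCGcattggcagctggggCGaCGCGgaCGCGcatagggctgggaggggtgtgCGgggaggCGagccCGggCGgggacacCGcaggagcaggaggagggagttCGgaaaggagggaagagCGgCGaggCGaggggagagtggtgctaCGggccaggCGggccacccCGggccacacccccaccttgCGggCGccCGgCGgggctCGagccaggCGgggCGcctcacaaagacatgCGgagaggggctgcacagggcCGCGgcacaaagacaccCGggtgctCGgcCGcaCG

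The other two-pore-domain genes had levels below 0.5 FPKM. Kcnk7, which is not known to form a channel alone, was listed at 0.134 FPKM in WT, 0.467 FPKM in Pcgf1-/- and 0.45 FPKM in Pcgf1-/-+Pcgf1, so that both lines with the deletion were above WT (log2 ratios 1.27 and 1.23). Kcnk4 (TRAAK), a stretch-activated leak channel, showed the reverse, with 0.46, 0.0774 and 0.144 FPKM and log2 ratios of -1.66 and -1.20 against WT. Its exons overlap those of Catsperz on the same strand, a gene with no single-name row of its own. Kcnk3 (TASK-1), an acid-sensitive leak channel, had 0.138 FPKM in WT and 0.0138 FPKM in Pcgf1-/- and was listed at 0 in Pcgf1-/-+Pcgf1. Kcnk13 was listed at 0.158, 0.373 and 0.0522 FPKM, and its step from Pcgf1-/- to Pcgf1-/-+Pcgf1 (log2 ratio -1.64) shrank to -0.21 on last-exon rows. Kcnk15 had 0.0737 FPKM in WT and 0.138 FPKM in Pcgf1-/-+Pcgf1 and was listed at 0 in Pcgf1-/-. Kcnk10, Kcnk16 and Kcnk18 did not exceed 0.0819 FPKM in any sample.

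Kv subunits made up 25 of the 82 genes, and their summed level was 17.69 FPKM in WT, 15.79 FPKM in Pcgf1-/- and 14.79 FPKM in Pcgf1-/-+Pcgf1. Between Pcgf1-/- and WT none was higher and 4 were lower, and between Pcgf1-/-+Pcgf1 and WT none passed 2-fold. Kcnh2 (ERG1), which carries a repolarising current of the heart, was the highest, with 4.013 FPKM in WT, 5.4 FPKM in Pcgf1-/- and 4.214 FPKM in Pcgf1-/-+Pcgf1. Kcnh3 (ELK2), a brain channel of the same Kcnh gene family, had 3.62, 2.252 and 2.474 FPKM. Its exons overlap Mcrs1 on the opposite strand, which was listed at 76.75, 68.29 and 64.64 FPKM, and the libraries are not stated to keep strand, so reads of both genes cannot be told apart where they overlap. Kcnc4, a fast Kv3 channel, had 1.387, 1.946 and 0.886 FPKM. Its lower level in Pcgf1-/-+Pcgf1 than in Pcgf1-/- (log2 ratio -1.05) came down to -0.11 on first-exon rows.

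Kcnd1 (Kv4.1), which carries rapidly inactivating current, was listed at 2.714 FPKM in WT, 1.263 FPKM in Pcgf1-/- and 1.577 FPKM in Pcgf1-/-+Pcgf1. The log2 ratio between Pcgf1-/- and WT was -1.05, with no value on last-exon rows, which were at 0 in all samples. The related Kcnh4 had 0.898, 0.35 and 0.525 FPKM, and Kcnh8 had 0.559, 0.0787 and 0.314 FPKM. Both encode ELK channels, both were lowest in Pcgf1-/- and both were nearer to WT in Pcgf1-/-+Pcgf1. For Kcnh4 the log2 ratio between Pcgf1-/- and WT was -1.15, and on first-exon rows it was -0.76, within 2-fold. Kcnh8 had the larger step of the pair (log2 ratio -1.88 against WT and 1.21 back). Kcnh7 (ERG3) had 0.159 FPKM in WT and 0.172 FPKM in Pcgf1-/-+Pcgf1 and was listed at 0 in Pcgf1-/-. It shares exon sequence on the opposite strand with Gca, listed at 5.077, 5.342 and 5.325 FPKM. Kcnh6, the other ERG gene, had 0.456 FPKM in WT and was listed at 0 in Pcgf1-/-. The remaining Kv subunits stayed within 2-fold in all 3 comparisons.

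Auxiliary subunits had the lowest ratio of summed levels between Pcgf1-/- and WT of the role groups, with 4.942 FPKM in WT, 2.046 FPKM in Pcgf1-/- and 3.54 FPKM in Pcgf1-/-+Pcgf1. Of 14 genes, none was higher and 2 were lower in Pcgf1-/- than in WT. Kcnip2 (KChIP2), a calcium-binding partner of Kv4 channels such as that of Kcnd1, was listed at 2.861 FPKM in WT, 0.929 FPKM in Pcgf1-/- and 0.813 FPKM in Pcgf1-/-+Pcgf1. Both lines that carry the deletion were low, and Pcgf1-/-+Pcgf1 was no nearer to WT (log2 ratios of -1.52 and -1.70 against WT). Kcnip2 and Kcnd1 were both highest in WT. Kcnab3, a Kv beta subunit, had 1.48 FPKM in WT, 0.672 FPKM in Pcgf1-/- and 1.604 FPKM in Pcgf1-/-+Pcgf1, so that Pcgf1-/- alone was low (log2 ratio -1.03 against WT and 1.14 back). Its first-exon rows were at 0 in Pcgf1-/-, and its antisense gene Kcnab3os was listed at 0 in all samples. Kcnip3 had 0.327, 0.247 and 0.694 FPKM and Kcnab1 had 0.108, 0.115 and 0.298 FPKM, both highest in Pcgf1-/-+Pcgf1. Of the Kcne and Kcnmb genes, none exceeded 0.0949 FPKM.

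Within Kcnip2 most of the WT level came from one first exon. The first exon at chr19:45812198-45812291, which starts the coding transcript Kcnip2-203, carried 2.405 FPKM in WT, 0.491 FPKM in Pcgf1-/- and 0.508 FPKM in Pcgf1-/-+Pcgf1. A first exon farther upstream, at 45815731 to 45816022, carried 0.456 FPKM in WT and 0.438 FPKM in Pcgf1-/- and was listed at 0 in Pcgf1-/-+Pcgf1. A further first exon, 6419 bases from the nearest annotated start, carried 0.305 FPKM in Pcgf1-/-+Pcgf1. The difference between WT and Pcgf1-/- was thus in the exon of Kcnip2-203, while the upstream exon had nearly the same level in both.

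**Figure D3:**
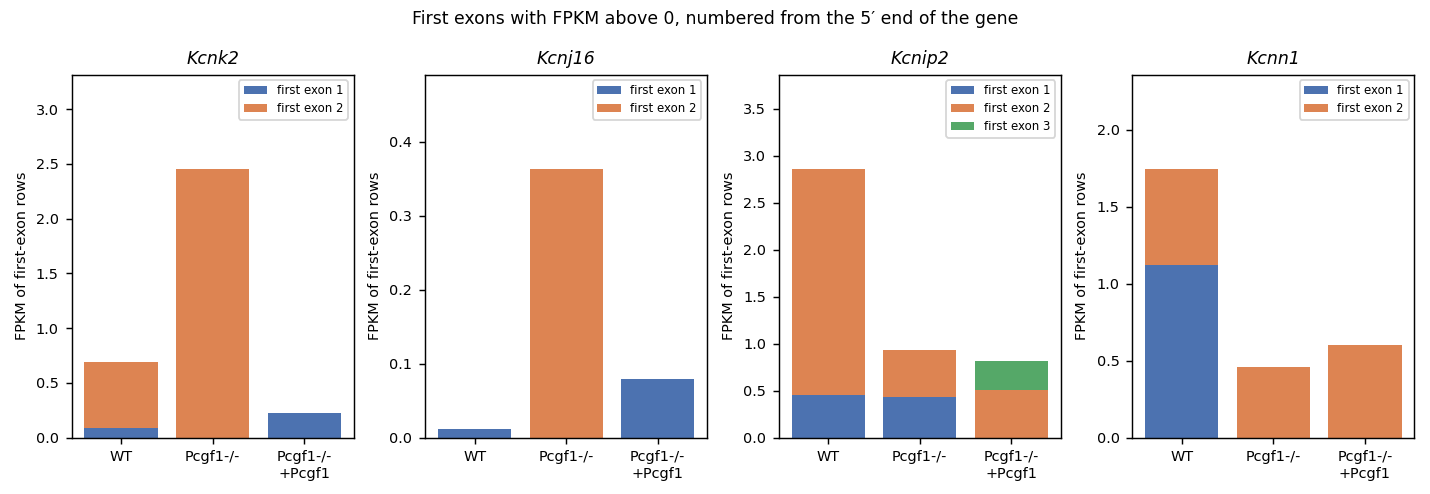
FPKM of the first-exon rows above 0 of Kcnk2, Kcnj16, Kcnip2 and Kcnn1 in the 3 samples, as stacked bars that start at 0, with first exons numbered from the 5′ end of the gene. Kcnk2 has 2.457 FPKM in Pcgf1-/- from its downstream first exon only, Kcnj16 has 0.364 FPKM in Pcgf1-/- from an exon that is at 0 in both other samples, and the exon of Kcnn1 with 1.119 FPKM in WT has no bar in the other samples.

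Inward rectifiers had the lowest summed level of the role groups in every sample, with 2.427 FPKM in WT, 1.752 FPKM in Pcgf1-/- and 2.751 FPKM in Pcgf1-/-+Pcgf1 over 13 genes. In each sample 7 of the 13 were above 0. Kcnj12 (Kir2.2), a strong rectifier of heart and muscle, was the highest, with 1.329, 0.858 and 1.61 FPKM. Kcnj10 (Kir4.1), the main glial rectifier, had 0.374, 0.244 and 0.533 FPKM. Both were lowest in Pcgf1-/-, within 2-fold of the other samples on the FPKM + 0.1 scale. Without the added 0.1 FPKM, Kcnj10 in Pcgf1-/-+Pcgf1 was 2.19 times its level in Pcgf1-/-. On last-exon rows Kcnj10 was lowest in Pcgf1-/-+Pcgf1 instead, with 0.126 FPKM against 0.244 FPKM in Pcgf1-/-. Kcnj3, Kcnj8 and Kcnj9 lay between 0.0625 and 0.245 FPKM. Kcnj14 was listed at 0.4 FPKM in Pcgf1-/- and 0.241 FPKM in Pcgf1-/-+Pcgf1.

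Kcnj2 and Kcnj16 are neighbours on chromosome 11, 38.2 kb apart and on the same strand, and differed in opposite directions. Kcnj2 (Kir2.1), which sets the resting potential of many excitable cells, was listed at 0.188 FPKM in WT, 0 in Pcgf1-/- and 0.0937 FPKM in Pcgf1-/-+Pcgf1. Kcnj16 (Kir5.1), which acts as a partner of Kir4.1, had 0.0118 FPKM in WT, 0.364 FPKM in Pcgf1-/- and 0.0791 FPKM in Pcgf1-/-+Pcgf1 (log2 ratio 2.05 against WT, and -1.37 between Pcgf1-/-+Pcgf1 and Pcgf1-/-). The first gene was highest in WT and the second in Pcgf1-/-, and Pcgf1-/-+Pcgf1 lay in between for both. If the lowest step of the FPKM values stands for 1 fragment, Kcnj2, which has a single annotated transcript, had about 19.8 fragments in WT and 10.4 in Pcgf1-/-+Pcgf1.

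The Kcnj16 level in Pcgf1-/- came from another start than in the other samples. The upstream first exon at chr11:110968033-110968095 carried all FPKM in WT and Pcgf1-/-+Pcgf1 and was at 0 in Pcgf1-/-. In WT this was only 0.0118 FPKM. On the fragment estimate used for Kcnj2, Kcnmb1 had about 1 fragment at 0.0124 FPKM in WT. The WT start of Kcnj16 thus rests on very little. A downstream first exon, at chr11:111023860-111023980, carried 0.364 FPKM in Pcgf1-/- and was at 0 in the others. Both are annotated starts of coding transcripts. The promoters of both starts and of Kcnj2 are shown, since these are the starts at which the values differed. The Kcnj16 promoters hold 3 CG and 1 CG, counts reached by 76.7% and 94.6% of promoters, and that of Kcnj2 holds 18 CG, reached by 29.7%.
Kcnj16 upstream, chr11:110967783-110968082, plus strand: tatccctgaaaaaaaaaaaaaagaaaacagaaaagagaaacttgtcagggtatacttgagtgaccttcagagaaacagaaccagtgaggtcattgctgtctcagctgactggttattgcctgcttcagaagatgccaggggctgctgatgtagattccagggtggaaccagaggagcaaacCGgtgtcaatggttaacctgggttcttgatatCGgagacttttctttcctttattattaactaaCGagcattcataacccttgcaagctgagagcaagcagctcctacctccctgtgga
Kcnj16 downstream, chr11:111023610-111023909, plus strand: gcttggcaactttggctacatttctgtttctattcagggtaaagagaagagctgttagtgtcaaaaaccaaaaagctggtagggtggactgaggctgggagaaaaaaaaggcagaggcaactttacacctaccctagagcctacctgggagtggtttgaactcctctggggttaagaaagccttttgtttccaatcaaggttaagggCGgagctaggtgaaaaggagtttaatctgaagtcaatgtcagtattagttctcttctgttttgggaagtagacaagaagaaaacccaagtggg
Kcnj2, chr11:111065914-111066213, plus strand: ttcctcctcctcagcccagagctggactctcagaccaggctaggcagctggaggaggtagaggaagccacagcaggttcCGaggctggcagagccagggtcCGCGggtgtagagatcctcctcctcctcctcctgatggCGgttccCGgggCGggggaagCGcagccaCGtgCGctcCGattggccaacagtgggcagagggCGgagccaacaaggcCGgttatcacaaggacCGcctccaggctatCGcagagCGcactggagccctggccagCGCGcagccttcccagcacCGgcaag

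Silent subunits summed to 2.838 FPKM in WT, 3.092 FPKM in Pcgf1-/- and 4.795 FPKM in Pcgf1-/-+Pcgf1 over 9 genes. Kcns1 (Kv9.1), a modifier of Kv2 channels known from sensory neurons, had 0.756 FPKM in WT, 1.665 FPKM in Pcgf1-/- and 2.347 FPKM in Pcgf1-/-+Pcgf1. Both lines with the deletion were above WT, with log2 ratios of 1.05 and 1.52, and Pcgf1-/-+Pcgf1 was the highest of the 3. Kcng1 (Kv6.1) ran the other way, with 1.321 FPKM in WT, 0.334 FPKM in Pcgf1-/- and 1.284 FPKM in Pcgf1-/-+Pcgf1. It was low in Pcgf1-/- alone (log2 ratio -1.71 against WT and 1.67 back), and its values in WT and Pcgf1-/-+Pcgf1 were almost equal. Kcng4 was near 0.014 FPKM in WT and Pcgf1-/- and had 0.267 FPKM in Pcgf1-/-+Pcgf1. Kcng2 had 0.0257, 0.158 and 0.0269 FPKM. Kcns3, a modifier found in smooth muscle, lay within 2-fold at 0.683, 0.899 and 0.81 FPKM.

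All 8 calcium- or sodium-activated genes were above 0 in every sample, the only role group of which this held. Their summed level was 7.563 FPKM in WT, 5.807 FPKM in Pcgf1-/- and 6.24 FPKM in Pcgf1-/-+Pcgf1. Kcnn4 (KCa3.1), the intermediate-conductance channel of blood cells and epithelia, had 2.347, 2.046 and 2.692 FPKM. Kcnn2 (SK2), a small-conductance channel, had 2.116, 2.131 and 1.009 FPKM, and its lower value in Pcgf1-/-+Pcgf1 (log2 ratio -1.01 against Pcgf1-/-) rests on last-exon rows, since first-exon rows gave -0.01. Kcnn1 (SK1) had 1.747 FPKM in WT, 0.46 FPKM in Pcgf1-/- and 0.601 FPKM in Pcgf1-/-+Pcgf1, with log2 ratios of -1.72 and -1.40 against WT. The WT level included 1.119 FPKM from an upstream first exon that was not listed in the other samples, while the downstream first exon carried 0.628, 0.46 and 0.601 FPKM. On last-exon rows the log2 ratio of Kcnn1 between Pcgf1-/- and WT was -0.38. Kcnma1 (BK), the large-conductance channel, had 0.052, 0.225 and 0.149 FPKM. Rows of other events of Kcnma1 in WT carried up to 0.0908 FPKM, and with that value its log2 ratio between Pcgf1-/- and WT was 0.77 in place of 1.10, within 2-fold. Kcnu1 (Slo3), known from sperm, had 0.639, 0.577 and 1.225 FPKM. On last-exon rows it had 0.639, 0.252 and 0.563 FPKM, so WT was the highest there in place of Pcgf1-/-+Pcgf1.

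Differences in the leading first exon were not rare in these lists. Among 48 members with first-exon values above 0 in Pcgf1-/- and WT, the first exon of highest FPKM lay more than 500 bases apart in 8 (16.7%), against 8.93% of 11641 genes. At 0.5 FPKM or more in both samples it did so in 2 of 17 members (11.8%), which were Kcnh2 and Kcnu1, against 7.3% of 9265 genes. Between Pcgf1-/-+Pcgf1 and Pcgf1-/- the share was 19.6% of 51 members and 8.96% of genes above 0, and 6.25% of 16 members and 7.12% of genes at 0.5 FPKM or more. Between Pcgf1-/-+Pcgf1 and WT it was 16.4% of 55 members and 9.43% of genes, and 15% of 20 members and 7.86% of genes. Kcnh2 had another leading first exon in each sample, of which 2 lay more than 9 kb upstream of its nearest annotated start. The lists hold no fragment counts per exon, so the precision of the first-exon values is unknown.

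Putting Pcgf1 back was compared with Pcgf1-/- and with WT. These comparisons and the one above share samples, so their values are given side by side and no overlap was counted as a result. Between Pcgf1-/-+Pcgf1 and Pcgf1-/-, 7 of 82 members were higher (8.54%), which were Kcnab3, Kcng1, Kcng4, Kcnh7, Kcnh8, Kcnip3 and Kcnk15, against 6.35% of all genes. As many, 7, were lower, which were Kcnc4, Kcng2, Kcnj16, Kcnk13, Kcnk2, Kcnk6 and Kcnn2, against 2.22%. Together these were 17.1% of the members and 8.57% of all genes. From 0.1 up to 0.5 FPKM, 4 of 18 members were higher (22.2%) and 3 were lower (16.7%), against 36.5% and 8.91% of genes. From 0.5 up to 5 FPKM, 3 of 21 members were higher and 3 were lower (14.3% each), against 19.7% and 5.24% of genes. At 5 FPKM or more, Kcnk6 alone of 4 members was lower, where 3.18% of genes were higher and 3.09% lower. Of 25 members with at least 0.5 FPKM in one of the pair, 12% were higher and 16% lower, against 9.17% and 3.87% of genes. Between Pcgf1-/-+Pcgf1 and WT, 3 members were higher (3.66%), which were Kcng4, Kcnk7 and Kcns1, against 3.99% of all genes, and 5 were lower (6.1%), which were Kcnip2, Kcnk2, Kcnk3, Kcnk4 and Kcnn1, against 2.36%. In either direction the shares were 9.76% and 6.34%. In the range from 0.1 to 0.5 FPKM 10% of 20 members were higher and 10% lower, against 25% and 12.8% of genes. In the range from 0.5 to 5 FPKM 1 of 22 was higher and 3 were lower, or 4.55% and 13.6%, against 11.2% and 6.31% of genes. Neither of the 2 members at 5 FPKM or more passed 2-fold, against 1.68% of genes higher and 1.72% lower. Of 24 members with at least 0.5 FPKM in one of the pair, 4.17% were higher and 12.5% lower, against 5.17% and 3.4% of genes.

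**Figure D4:**
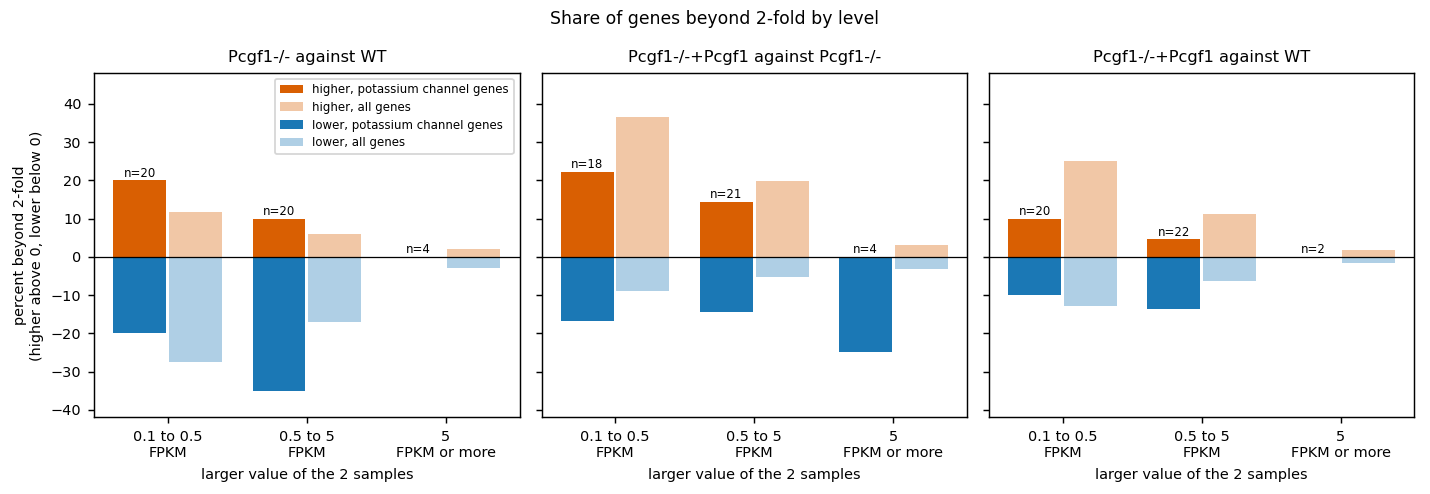
Percent of genes beyond 2-fold, higher plotted above 0 and lower below 0, by the larger FPKM of the 2 samples compared, for potassium channel genes (dark, number of genes above the bars) and for all genes (pale). From 0.5 to 5 FPKM, 35% of 20 members were lower in Pcgf1-/- than in WT against 17% of all genes, and the shares rest on few members in every range.

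Other transporters of ions were read for context. Of 15 potassium pump and cotransporter genes, none was higher and 2 were lower in Pcgf1-/- than in WT. Atp1b2, a beta subunit of the sodium-potassium pump, was one of them, with 7.538 FPKM in WT, 2.547 FPKM in Pcgf1-/- and 5.023 FPKM in Pcgf1-/-+Pcgf1. Of 14 voltage-gated sodium channel genes, 1 was higher and 6 were lower in Pcgf1-/-, and of 25 calcium channel genes and 4 HCN channel genes none passed 2-fold. Over all genes 2.16% were higher and 4.98% lower. The 6 lower sodium channel genes other than Scn8a had larger values from 0.1 up to 0.5 FPKM. In that range 27.4% of all genes were lower, and from 0.5 up to 5 FPKM 17% were. Among 9 partners of potassium channels with other names, Dpp6 was higher and Kcnrg was lower.

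The cell types in the samples were read from markers. ES cell markers summed to 1908 FPKM in WT, 1908 FPKM in Pcgf1-/- and 1720 FPKM in Pcgf1-/-+Pcgf1, with Pou5f1 at 669.5, 518.3 and 625.9 FPKM. Of these 6 markers, Zfp42, Esrrb, Tdgf1 and Utf1 were listed higher and Pou5f1 and Nanog lower in Pcgf1-/- than in WT, all within 2-fold. Nanog had 68.23, 46.34 and 123 FPKM, beyond 2-fold between Pcgf1-/-+Pcgf1 and Pcgf1-/- (log2 ratio 1.41). The 14 feeder fibroblast markers summed to 24.04, 12.61 and 24.38 FPKM. Of these, 4 were lower in Pcgf1-/- than in WT (Col1a1, Col1a2, Thy1 and Pdgfrb) and none was higher, 5 were higher in Pcgf1-/-+Pcgf1 than in Pcgf1-/-, and Postn was at 0 throughout. Over all genes 4.98% were lower and 2.16% higher in Pcgf1-/- than in WT, and 6.35% were higher in Pcgf1-/-+Pcgf1 than in Pcgf1-/-. Most of the difference in the sum was from Thy1, with 14.21, 6.389 and 13.46 FPKM. Dcn went the other way within 2-fold (0.352 FPKM in WT and 0.779 FPKM in Pcgf1-/-), and Col5a1 had 2.537, 2.545 and 3.096 FPKM. Between Pcgf1-/-+Pcgf1 and WT, Col6a3, Dcn and Twist2 were higher and Col1a2 was lower. The feeder sum was thus lowest in Pcgf1-/-, as were Kcng1, Kcnab3, Kcnh8 and Kcnj2, and the part of feeder RNA in these differences was not tested. The 9 neuronal markers summed to 182.7, 177.9 and 174.5 FPKM, most of it from Stmn2 (147.8, 143.6 and 138.4 FPKM) and Nefl (27.47, 28.46 and 26.81 FPKM). Of the other neuronal markers, Syt1 had 0.334, 0.009 and 0.298 FPKM and was lower in Pcgf1-/- than in both other samples. Rbfox3 had 1.441, 1.001 and 4.122 FPKM and was higher in Pcgf1-/-+Pcgf1 than in both other samples. In such bulk samples, fewer cells of a type and less RNA per cell cannot be told apart. Pcgf1 itself was listed at 13.95 FPKM in WT, 5.884 FPKM in Pcgf1-/- and 7.862 FPKM in Pcgf1-/-+Pcgf1, a gene value that does not check the deletion of 2 internal exons.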

How the data were processed

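RNA-seq was made from total RNA with poly-T selection and the NEBNext Ultra kit, which is not stated to keep strand, in 1 sample per group. The submitters' notes name TopHat2 2.0.12, Cufflinks 2.2.1 and HTSeq 0.6.0 and the build mm10. The deposited file of each sample lists events of assembled transcripts and gives each event an FPKM. Which program wrote these files is not given in the sources used here. FPKM of first-exon (TSS) and last-exon (TTS) rows were added up per single gene name, and the larger of both was taken as its level. Among members above 0, both sums matched within 0.001 FPKM for 44 of 59 in WT, 42 of 56 in Pcgf1-/- and 52 of 62 in Pcgf1-/-+Pcgf1. Loci with several gene names and names turned into dates were left out. The lists hold no counts and give no library depth, so no count model was used. Ratios were taken on FPKM + 0.1, and 2-fold was the threshold.

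Members and lists were chosen with earlier results of these data known. Named were members of at least 1 FPKM, those beyond 2-fold between Pcgf1-/- and WT at 0.5 FPKM or more, the 5 largest differences each way in each comparison, and Kcnj2, 32 genes in all. Others were named after their values were seen, and not every member was given values of its own. Annotation was GENCODE vM21, and promoters were from RefSeq. Some genes are not reported here by name. Kcnab2 was listed only in a locus with another gene, and genes such as Kcna3, Kcna5, Kcnf1 and Kcnj11 were not analysed here. Python 3.11.15, numpy 2.4.6, pandas 2.3.3 and matplotlib 3.10.9 were used.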

Additional observations from a re-analysis of the deposited data

Results flagged for a closer look

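Rows that belong to potassium channel genes but not to a single channel gene name exceeded the WT value in 3 cases. The locus that joins Kcnab2, a Kv beta subunit, with Gm16334 was listed at 1.596 FPKM in Pcgf1-/-+Pcgf1, against 0.439 FPKM in WT and 0 in Pcgf1-/-. Kcnmb4os2, an antisense gene that overlaps the BK subunit gene Kcnmb4, was listed at 0.535 FPKM in Pcgf1-/- and 0.173 FPKM in Pcgf1-/-+Pcgf1, against 0.145 FPKM in WT. Kcnmb4 itself had 0.0949 FPKM in WT, 0 in Pcgf1-/- and 0.0447 FPKM in Pcgf1-/-+Pcgf1. No difference was tested.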

How the results depend on the processing

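No paired analysis was possible because each group has 1 sample, and no replicate could be left out. The number of members beyond 2-fold moved most with the pseudocount. With 0.01 FPKM it was 15 higher and 20 lower for Pcgf1-/- against WT, 21 higher and 10 lower for Pcgf1-/-+Pcgf1 against Pcgf1-/-, and 17 higher and 10 lower for Pcgf1-/-+Pcgf1 against WT, while 12.9%, 14.4% and 11.8% of all genes were beyond 2-fold in either direction. With 1 FPKM these comparisons gave 1 higher and 1 lower, 0 higher and 1 lower, and 0 higher and 1 lower, with 1.79%, 2.31% and 1.3% of all genes. Over members of at least 0.5 FPKM in one of both samples they gave 2 higher and 7 lower, 3 higher and 4 lower, and 1 higher and 3 lower, since fewer genes were read, with 11.2%, 13% and 8.57% of all genes so taken. With a limit of 0.1 FPKM in place of 0, 39 members were detected in WT, 35 in Pcgf1-/- and, with Pcgf1 put back, 40. First-exon rows only, last-exon rows only and median-of-ratios scaling left all these counts within 1.5 times. The scaling took out a median log2 ratio of -0.13 in genes above 5 FPKM between Pcgf1-/-+Pcgf1 and WT, and of -0.07 and -0.05 in the other comparisons, in order. Of 37 differences of named genes beyond 2-fold, none changed sign under any of the settings, 34 stayed beyond 2-fold under scaling, with Kcnab3 (-0.97) and Kcnd1 (-0.98) lost between Pcgf1-/- and WT and Kcnn2 (-0.96) between Pcgf1-/-+Pcgf1 and Pcgf1-/-, and 4 did so with 1 FPKM, all of Kcnk2 or Kcnip2. The lists give no library depth. The lowest step of the FPKM values, if it stands for 1 fragment, was 0.0517 FPKM in WT for a transcript of 1 kb. It was 0.0472 FPKM in Pcgf1-/- and 0.0492 FPKM in Pcgf1-/-+Pcgf1. For genes with several transcripts this gives no single floor.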
